A study of Mus musculus with 6 samples.

Results

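The 36 genes described here encode aminoacyl-tRNA synthetases, 20 that act in the cytosol and 16 with symbols ending in 2 that act in mitochondria. They were chosen by gene symbol, in the older naming (*Aars* is now *Aars1*), among the 47069 genes of a count table from LβT2 cells, by a rule that uses no measured value. LβT2 is an immortalized line of mouse pituitary gonadotropes, the cells that secrete the gonadotropins in response to gonadotropin-releasing hormone (GnRH). All 6 libraries came from passage 14 of this one line and from cells given 2 nM GnRH for 40 min, so that no untreated group entered the comparison. In the 3 fresh libraries the cells were lysed right after trypsinization and pelleting, and in the 3 RNA-Best libraries the pelleted cells first spent at least 4 days in this proprietary reagent at 4°C. The comparison asks whether storage in RNA-Best leaves the measured mRNA levels of these enzymes as they are in fresh cells.

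An aminoacyl-tRNA synthetase joins one amino acid to its tRNAs, the step that fixes the meaning of each codon. The enzymes belong to class I or class II by the fold of their catalytic domain. Cells carry one set for the cytosol and another, also encoded in the nucleus, for mitochondrial translation, and the genes *Gars* (glycine) and *Kars* (lysine) each supply both places. Several cytosolic enzymes are bound in a multi-synthetase complex with scaffold proteins, and *Eprs* encodes one chain with both the glutamate and the proline activity. Uncharged tRNA activates the kinase Gcn2, which raises the translation of the transcription factor Atf4, and Atf4 acts on synthetase genes through C/EBP-ATF response elements.

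The core of that element, TGATGNAA on either strand, was searched in the promoter windows of RefSeq (build GRCm38.p6), which run from 250 bases before a gene's listed start to 50 bases after it. Windows were at hand for 12 cytosolic and 14 mitochondrial enzyme genes. The motif was in 5 of the 12 cytosolic genes (41.7%) and in 0 of the 14 mitochondrial genes. Of all genes with a window, 1219 of 27025 (4.51%) held it, and at that share few of 14 genes would hold it. The sites are shown because they set these cytosolic genes beside the mitochondrial ones, and they are matches of letters, not evidence of binding. The genes with a match were *Aars*, *Gars*, *Iars*, *Tars* and *Yars*, and 1 match of each is shown. Each line gives 30 bases, 5′ to 3′ in the direction in which the motif reads TGATGNAA, with the motif in capitals.
Aars, minus strand of chr8:111033840-111033869: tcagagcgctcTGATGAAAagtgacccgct
Gars, minus strand of chr6:55037960-55037989: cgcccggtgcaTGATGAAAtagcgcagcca
Iars, minus strand of chr13:49682126-49682155: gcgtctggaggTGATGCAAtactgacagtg
Tars, plus strand of chr15:11399655-11399684: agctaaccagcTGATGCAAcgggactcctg
Yars, plus strand of chr4:129189895-129189924: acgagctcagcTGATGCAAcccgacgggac
Read along the gene, the motif shown began 10 bases after the listed start of *Aars*, 30 bases before that of *Gars*, 8 bases after that of *Iars*, 15 bases before that of *Tars* and 4 bases after that of *Yars*. It read in the direction of the gene in *Yars* and against it in the others.

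The deposited values are counts per gene that the authors did not scale for library size. The fresh libraries held between 14477304 and 47438746 counts and the RNA-Best libraries between 4909418 and 11999363, so every fresh library was deeper. In a library, 3 counts, the limit that a count of 0 allows for counting error only, corresponded to between 0.0632 and 0.611 CPM, the count of a gene scaled to a common library size. The lowest count of a synthetase in any library was 32, so depth did not bring any of them near this limit. Of the 7 gonadotrope markers, *Fshb* had 0 counts in every library and the other 6 were detected, with a summed level between 3204 and 3250 CPM in fresh and between 2669 and 2734 CPM in RNA-Best libraries. The markers of other pituitary cells summed to at most 2.38 CPM in a library, and those of folliculostellate, fibroblast, endothelial and blood cells to between 37.6 and 43.5 CPM, nearly all from *Pecam1*. These levels moved with the groups too, and their part in the results was not tested. In bulk RNA, fewer cells of a type and less RNA per cell cannot be told apart.

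Differences between RNA-Best and fresh libraries in the synthetase mRNAs were small, and more of those that passed the test were decreases than increases. Among all 36 enzymes, which all passed the filter on low counts, 4 were higher in RNA-Best, 15 were lower and 17 did not pass an adjusted p of 0.05 (edgeR quasi-likelihood test, Benjamini-Hochberg adjustment over all tested genes). Over the 14736 genes tested, 26.0% were higher and 24.8% lower, 50.8% in all, which is close to the 52.8% of the synthetases. The log2 fold changes of the synthetases, RNA-Best minus fresh, lay between -0.25 and 0.60 with a median of -0.08, where the median of all tested genes was -0.0074. All 3 RNA-Best values lay below all 3 fresh values for 18 enzymes and above them for 6, and the groups overlapped for 12. Of all tested genes, 57.9% had groups that did not overlap, 29.0% below and 28.9% above.

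**Figure D1:**
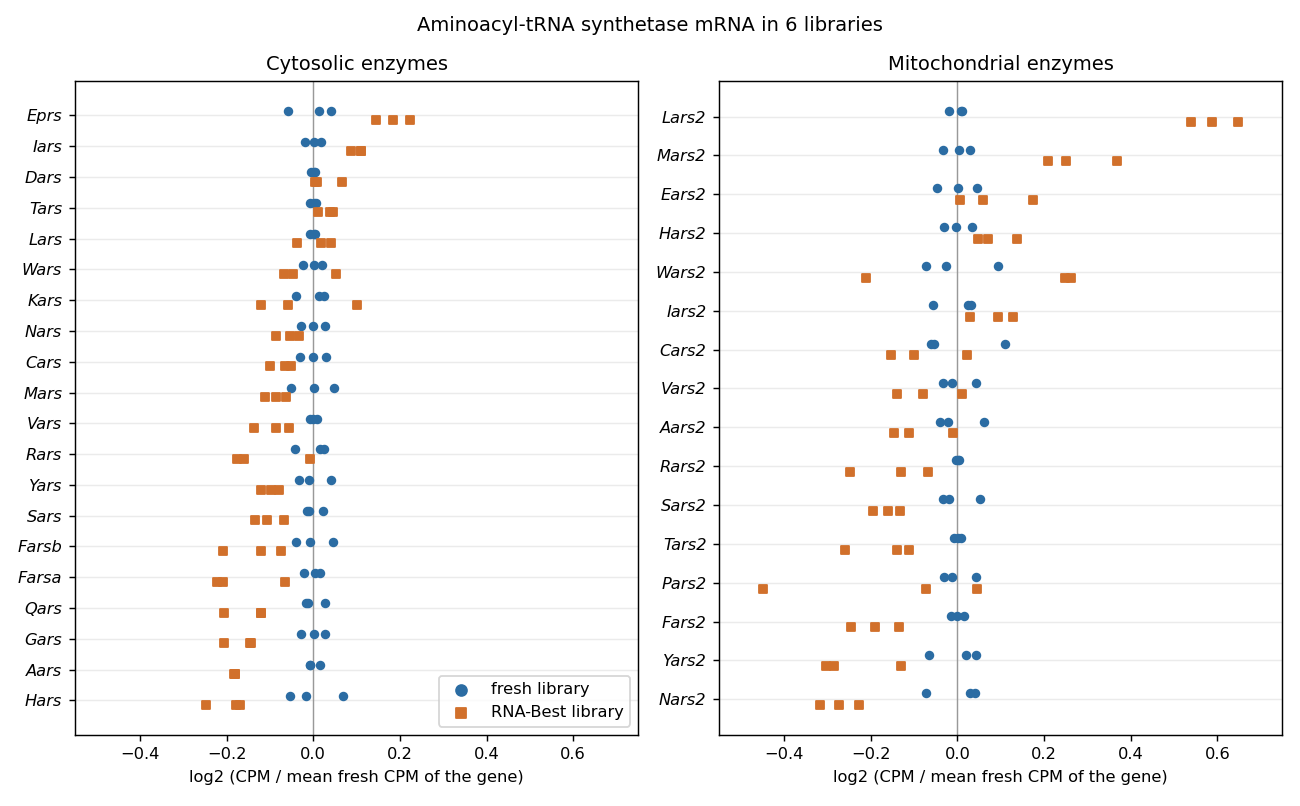
Level of each synthetase in each library, as the log2 ratio of its CPM to the mean CPM of the 3 fresh libraries (x axis), with cytosolic enzymes on the left, mitochondrial enzymes on the right, fresh libraries as blue circles and RNA-Best libraries as orange squares. The 3 RNA-Best points of *Lars2* lie far to the right of its fresh points, those of *Eprs*, *Iars* and *Mars2* lie to the right by less, and for 18 enzymes all RNA-Best points lie to the left.

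Among the cytosolic enzymes, 2 rose (*Eprs* and *Iars*), 10 fell and 8 did not pass the test, with a median log2 fold change of -0.09. The mitochondrial enzymes held 2 that rose (*Lars2* and *Mars2*), 5 that fell and 9 that did not pass, with a median of -0.07. On the log2 scale the 10 cytosolic decreases ran from -0.10 to -0.19 and the 5 mitochondrial ones from -0.15 to -0.25, and the difference between these groups was not tested. Differences of this size could exceed the spread between libraries, since the biological coefficient of variation common to all genes was 2.14%. Separate cultures are not named in the sources for the libraries of either group, and p-values then measure only the spread between these libraries, which may be technical.

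*Lars2*, the mitochondrial leucyl-tRNA synthetase (GRCm38, chr9:123366927-123462666, plus strand), differed from the fresh level more than any other synthetase with scaling for library size alone. With the length offset described further on, *Aars* (-0.37) and *Nars2* (-0.36) changed slightly more than *Lars2* (0.35). Its level was 292.0, 297.9 and 298.3 CPM in the fresh libraries and 444.5, 430.1 and 463.5 CPM in the RNA-Best libraries. The lowest RNA-Best value was far above the highest fresh value. The rise was 1.51-fold (log2 fold change 0.60, SE 0.03; edgeR adjusted p = 3.11e-18), and it passed the test under all 15 alternatives, with log2 fold changes between 0.35 and 0.62. The deposited counts of *Lars2* held parts of a count in 6 of 6 libraries, so some of its reads were divided between features. Of its 11217 stretches of 50 exonic bases, 22 (0.196%) also occur in the exons of other genes. One of these genes, *Gm15564*, named here after its values had been seen, also held parts of counts and moved from 88.4 ± 2.11 to 123 ± 1.71 CPM (SD, n = 3; log2 fold change 0.48), and the part of divided reads in the *Lars2* result was not tested.

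*Mars2*, the mitochondrial methionyl-tRNA synthetase (chr1:55237177-55248470, plus strand), was at 14.3, 13.7 and 14.0 CPM in fresh and 16.6, 18.1 and 16.2 CPM in RNA-Best libraries. The groups did not overlap, and the rise was 1.2-fold (log2 fold change 0.26, SE 0.08; edgeR adjusted p = 0.00608). *Eprs*, the glutamyl-prolyl enzyme of the complex (chr1:185363044-185428360, plus strand), was at 204.8, 200.8 and 191.1 CPM in fresh and 220.0, 226.0 and 232.1 CPM in RNA-Best libraries. Its RNA-Best values all lay above its fresh values, with a 1.13-fold rise (log2 fold change 0.18, SE 0.03; edgeR adjusted p = 1.53e-05). *Iars*, which charges isoleucine tRNAs in the cytosol, was at 81.0, 79.8 and 81.8 CPM in fresh and 87.4, 87.3 and 86.0 CPM in RNA-Best libraries. Here too the groups were apart, by a smaller step (log2 fold change 0.10, SE 0.04; edgeR adjusted p = 0.0241). The call for *Iars* was lost without fresh replicate 2 (edgeR adjusted p = 0.0846) and without RNA-Best replicate 1 (0.0835), 2 (0.0511) or 3 (0.0527), and with DESeq2 its adjusted p was 0.0821. *Mars2* and *Eprs* stayed past the threshold whichever single library was left out, as did *Lars2*. An offset for exonic length, described further on, turned *Eprs* to a decrease and left *Mars2* without a call, and an offset for GC content also ended the calls of *Mars2* (log2 fold change 0.11; edgeR adjusted p = 0.281) and *Iars* (0.07; 0.129) and brought *Eprs* to 0.09. Without the filter on low counts *Iars* was lost too (0.06; edgeR adjusted p = 0.377).

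The largest decreases among the called enzymes were in mitochondrial ones of modest level. *Nars2*, which charges asparagine tRNAs (chr7:96951505-97064758, plus strand), was at 17.3, 16.1 and 17.4 CPM in fresh and 14.5, 13.6 and 14.0 CPM in RNA-Best libraries (log2 fold change -0.25, SE 0.08; edgeR adjusted p = 0.00907). *Yars2*, the tyrosine enzyme, was at 25.8, 27.3 and 27.8 CPM in fresh and 21.8, 22.1 and 24.6 CPM in RNA-Best libraries (log2 fold change -0.21, SE 0.07; edgeR adjusted p = 0.00906). *Fars2*, the phenylalanine enzyme, was at 20.5, 20.3 and 20.1 CPM in fresh and 17.8, 18.5 and 17.1 CPM in RNA-Best libraries (log2 fold change -0.21, SE 0.07; edgeR adjusted p = 0.0154). In each of them the highest RNA-Best value stayed below the lowest fresh value. *Tars2* (threonine) and *Sars2* (serine) fell by 0.15 each on the log2 scale (edgeR adjusted p = 0.0183 and 0.0464). For all 5 the RNA-Best values lay below the fresh values, but their calls were sensitive to leaving out single libraries. Over the 15 alternatives the log2 fold changes ran from -0.38 to -0.21 for *Nars2* and from -0.33 to -0.14 for *Yars2*. They ran from -0.26 to -0.16 for *Fars2*, from -0.27 to -0.12 for *Tars2* and from -0.34 to 0.0028 for *Sars2*. Without RNA-Best replicate 3 only *Yars2* of the 5 passed, and the edgeR adjusted p was 0.0631 for *Nars2*, 0.143 for *Fars2*, 0.0623 for *Tars2* and 0.158 for *Sars2*. Without RNA-Best replicate 1 or 2 there were 3 mitochondrial enzymes that fell, as *Yars2* (0.088) and *Sars2* (0.0802) were lost without the first and *Tars2* (0.0861) and *Sars2* (0.108) without the second. *Sars2* was lost as well without fresh replicate 2 (0.0614) or 3 (0.0726), and both it and *Yars2* were lost with the length offset. With DESeq2 only *Yars2* of the 5 passed. The log2 fold changes of the others changed little, at -0.26 (*Nars2*), -0.20 (*Fars2*), -0.15 (*Tars2*) and -0.15 (*Sars2*). After thinning, *Nars2*, *Fars2* and *Tars2* did not pass. With the GC offset, *Fars2* (-0.16, edgeR adjusted p = 0.0625) and *Sars2* (0.0028, edgeR adjusted p = 0.978) were lost.

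In the cytosol, the largest decreases were in *Hars* and *Aars*, which charge histidine and alanine tRNAs. *Hars* was at 115.8, 112.9 and 122.8 CPM in fresh and 98.7, 104.2 and 103.5 CPM in RNA-Best libraries (log2 fold change -0.19, SE 0.04; edgeR adjusted p = 0.000118). *Aars* (chr8:111033144-111057664, plus strand) was at 246.3, 246.4 and 250.5 CPM in fresh and 218.6, 218.7 and 218.4 CPM in RNA-Best libraries (log2 fold change -0.18, SE 0.03; edgeR adjusted p = 4.77e-06). For both, all RNA-Best values lay below all fresh values, and the 3 values of *Aars* in RNA-Best were nearly the same. *Gars* and *Qars*, the enzymes for glycine and glutamine, followed with log2 fold changes of -0.16 and -0.15. These 4 enzymes passed the test in every one of the 15 alternatives, but their sizes moved: *Aars* ran from -0.37 to -0.07, *Hars* from -0.24 to -0.09, *Gars* from -0.22 to -0.09 and *Qars* from -0.25 to -0.12. The smallest decrease came with the GC offset for *Aars* (-0.07) and with the length offset for *Hars* (-0.09) and *Gars* (-0.09). The other cytosolic enzymes that fell were *Farsa* (-0.14) and *Farsb* (-0.11), the subunits of the phenylalanine enzyme, *Sars* (-0.11, serine), *Yars* (-0.10, tyrosine), *Rars* (-0.10, arginine) and *Vars* (-0.10, valine). *Rars* was the only one of the 15 enzymes called lower whose groups overlapped.

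Each of these 6 calls was lost when some single library was left out. With DESeq2, *Farsa* (adjusted p = 0.0561), *Farsb* (0.116), *Rars* (0.0864) and *Yars* (0.0588) were lost, and with the GC offset in edgeR *Sars* (adjusted p = 0.212), *Yars* (0.241) and *Vars*, which turned to 0.06 (0.0825). Thinning every library to the depth of the smallest ended the calls of *Farsb*, *Sars*, *Vars* and *Yars*. Without RNA-Best replicate 1 the edgeR adjusted p was 0.114 for *Farsa*, 0.0519 for *Sars* and 0.22 for *Rars*. Without RNA-Best replicate 2 it was 0.0607 for *Farsa*, 0.151 for *Farsb* and 0.139 for *Rars*, and without RNA-Best replicate 3 it was 0.123 for *Farsb*, 0.118 for *Vars* and 0.099 for *Yars*. Of the fresh libraries, leaving out replicate 1 lost *Rars* (0.0607) and *Yars* (0.0787), replicate 2 lost *Farsb* (0.0635) and *Rars* (0.0851), and replicate 3 lost *Farsb* (0.0694). In the other direction, *Mars*, the cytosolic methionine enzyme, had an edgeR adjusted p of 0.0548 with all libraries and 0.0177 without fresh replicate 2.

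The remaining 17 enzymes did not pass the threshold, with log2 fold changes from -0.17 (*Pars2*, proline) to 0.10 (*Ears2*, glutamate). In the cytosol these were *Dars*, *Kars*, *Lars*, *Mars*, *Cars*, *Nars*, *Tars* and *Wars*, for aspartate, lysine, leucine, methionine, cysteine, asparagine, threonine and tryptophan. *Cars*, *Mars* and *Nars* had all RNA-Best values below the fresh ones, and *Tars* had them above. Among the mitochondrial enzymes these were *Aars2*, *Cars2*, *Ears2*, *Hars2*, *Iars2*, *Pars2*, *Rars2*, *Vars2* and *Wars2*, of which *Rars2* had all RNA-Best values below the fresh ones and *Hars2* above. Precision was lowest for the enzymes with few counts: the SE of the log2 fold change was 0.13 for *Wars2* and 0.10 for *Pars2*, against 0.03 for *Aars*, so a change of the size seen in *Aars* was not detectable in them.

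The position of an enzyme in the cell gave a second way to group the members. Of all genes, 26.0% were higher and 24.8% lower. Of the 8 enzymes of the multi-synthetase complex (*Dars*, *Eprs*, *Iars*, *Kars*, *Lars*, *Mars*, *Qars* and *Rars*), 2 rose and 2 fell, with a median log2 fold change of -0.02. Of the 12 cytosolic enzymes outside it, 0 rose and 8 fell, with a median of -0.11. The only one of the 12 with overlapping groups was *Wars*. By class, the cytosolic enzymes had medians of -0.08 for the 9 of class I and -0.11 for the 10 of class II, with *Eprs* left out because its 2 activities belong to different classes. Among the mitochondrial enzymes, the 9 of class I had a median of 0.07 with 2 higher and 1 lower, and the 7 of class II a median of -0.15 with 0 higher and 4 lower. With the length offset described further on, the medians were -0.04 for cytosolic class I, -0.07 for cytosolic class II, -0.04 for mitochondrial class I, which thus changed its sign with 1 higher and 1 lower, and -0.10 for mitochondrial class II. No difference between these groups was tested, since the members were chosen as a list.

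Levels of different genes were compared as CPM per kb of exonic length in the fresh libraries. This length joins the exons of all annotated transcripts of a gene and can exceed the length of its mRNA. The order of levels and the ratios between enzymes depend on it. *Eprs*, with 18102 bases, had 199 CPM in fresh libraries, above *Hars* (117 CPM), yet the lowest cytosolic level per kb. The level of cytosolic enzymes ran from 10.99 to 84.2 CPM per kb with a median of 25.8, and that of mitochondrial enzymes from 0.9204 to 26.7 with a median of 6.74. *Gars* was highest, at 84.3, 82.6 and 85.8 CPM per kb in fresh and 73.0, 76.2 and 76.3 in RNA-Best libraries. *Nars*, for asparagine, was at 73.7, 72.3 and 75.03 CPM per kb in fresh and 69.5, 72.0 and 71.0 in RNA-Best libraries, and *Vars*, for valine, at 59.8, 59.3 and 59.1 in fresh and 57.2, 55.9 and 54.0 in RNA-Best libraries. These 3 kept this order in every library. At the other end, *Wars2*, for tryptophan, was at 0.876, 0.904 and 0.982 CPM per kb in fresh and 1.10, 1.09 and 0.795 in RNA-Best libraries. *Mars2* was at 1.26, 1.21 and 1.24 CPM per kb in fresh and 1.47, 1.60 and 1.43 in RNA-Best libraries, and *Cars2*, for cysteine, at 1.49, 1.48 and 1.67 in fresh and 1.39, 1.57 and 1.44 in RNA-Best libraries. The fresh ranges of these lowest 3 were apart from each other, while in RNA-Best libraries those of *Mars2* and *Cars2* overlapped.

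**Figure D2:**
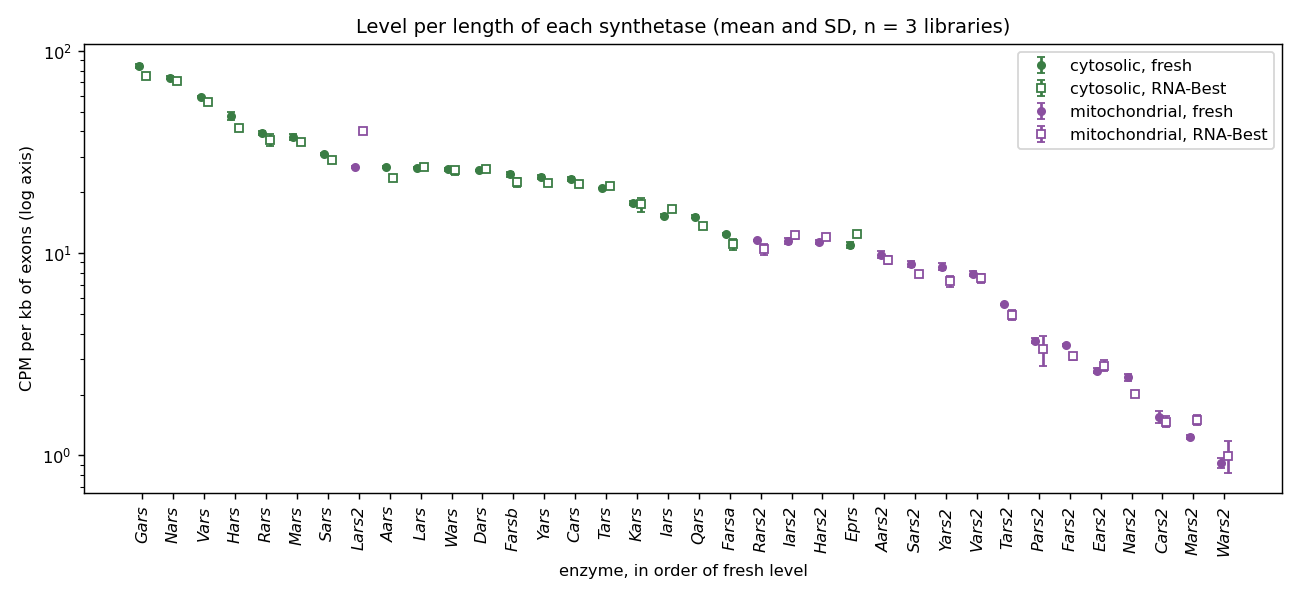
Level of each synthetase in CPM per kb of exons (y axis, log scale), ordered by the fresh level, as the mean with SD over 3 libraries, with filled circles for fresh, open squares for RNA-Best, green for cytosolic and purple for mitochondrial enzymes. The cytosolic enzymes fill the left side from 84.2 (*Gars*) downward, and *Lars2* stands among them at 26.7 (fresh) and 40.2 (RNA-Best). *Rars2*, *Iars2* and *Hars2* lie just above *Eprs*, the lowest cytosolic enzyme per kb.

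Down the order of fresh levels, 23 of the 35 neighbouring pairs had ranges that did not overlap and 12 had ranges that did. The longest stretches of overlapping neighbours were *Lars2*, *Aars*, *Lars*, *Wars* and *Dars*, all near 26 CPM per kb, and *Rars2*, *Iars2*, *Hars2* and *Eprs*, between 10.99 and 11.6. *Farsb*, *Yars* and *Cars* formed a shorter one, and *Rars* and *Mars*, *Iars* and *Qars*, and *Sars2* and *Yars2* overlapped as single pairs. The fresh range of *Lars2* overlapped those of *Aars*, *Lars* and *Wars*, and in RNA-Best libraries, at 40.1, 38.8 and 41.8 CPM per kb, its range overlapped those of *Hars* (40.3, 42.6 and 42.3) and *Rars* (35.3, 34.9 and 39.2).

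For the amino acids with an enzyme of each kind on the list, 17 pairs of a cytosolic and a mitochondrial gene could be formed, and *Eprs* and *Fars2* stand in more than one. In 16 of them the cytosolic gene had the higher level per kb in every library, with fresh ratios up to 30.3 for *Nars* over *Nars2* and a median of 3.77. Leucine was the exception, with ratios of *Lars* over *Lars2* of 1.001, 0.989 and 0.986 in fresh and 0.680, 0.665 and 0.642 in RNA-Best libraries. For methionine the ratio of *Mars* over *Mars2* went from 30.2 ± 0.813 with fresh cells to 23.6 ± 0.973 with RNA-Best, and for histidine that of *Hars* over *Hars2* went from 4.20 ± 0.0895 to 3.45 ± 0.0734 (SD, n = 3). In both pairs the fresh and RNA-Best ratios did not overlap. Ratios were also apart, in the other direction, for *Nars* over *Nars2* (30.3 ± 0.814 to 35.2 ± 1.73). The same held for *Tars* over *Tars2* (3.77 ± 0.0323 to 4.34 ± 0.283) and *Eprs* over *Pars2* (2.98 ± 0.0939 to 3.81 ± 0.620). In 7 of the 17 pairs the mitochondrial log2 fold change was above the cytosolic one. No ratio was tested. The log2 fold changes with the length offset were -0.03 for *Mars* and 0.01 for *Mars2*, against -0.08 and 0.26 without it, and they were -0.09 for *Hars* and 0.10 for *Hars2*. In 0 of the 17 pairs were the enzymes called in opposite directions.

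The summed level of the 20 cytosolic enzymes was 3037 ± 21.8 CPM in fresh and 2902 ± 28.6 CPM in RNA-Best libraries (SD, n = 3), a ratio of 0.955. The sum of the 16 mitochondrial enzymes went the other way, from 757 ± 6.15 to 894 ± 14.6 CPM, a ratio of 1.18. *Lars2* alone rose by more CPM than this sum, and it made up 39.1% ± 0.291 of the mitochondrial sum in fresh and 49.9% ± 1.05 in RNA-Best libraries. Without *Lars2*, a choice made after its value had been seen, the sum was 461 ± 3.97 CPM in fresh and 448 ± 2.12 CPM in RNA-Best libraries, a ratio of 0.972.

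Over all genes, the difference between RNA-Best and fresh libraries moved with exonic length, the summed length of a gene's exons. The median log2 fold change was -0.22 in genes of up to 1000 bases and 0.32 in genes of more than 10000 bases, and the Spearman correlation was 0.523 across 14677 genes, which are not independent replicates. Across the synthetases it was 0.352 (n = 36), with 0.251 in the 20 cytosolic and 0.441 in the 16 mitochondrial enzymes, all measured in the same 6 libraries. The synthetases span 2447 bases (*Hars*) to 18102 bases (*Eprs*). The 3 members of more than 10000 bases were *Eprs*, *Mars2* (11294) and *Lars2* (11089), which are 3 of the 4 enzymes that rose. Of the 7 members from 6001 to 10000 bases, where all genes had a median of 0.16 and a lower quartile of 0.02, 0 rose. *Aars* (9282 bases, log2 fold change -0.18), *Nars2* (6967, -0.25), *Tars2* (6932, -0.15) and *Qars* (6572, -0.15) fell, and *Iars2* (8885, 0.07), *Cars2* (7237, -0.06) and *Cars* (6583, -0.07) did not pass the test. With GC content, the Spearman correlation of the log2 fold change was -0.25 in the synthetases and -0.322 in all genes.

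**Figure D3:**
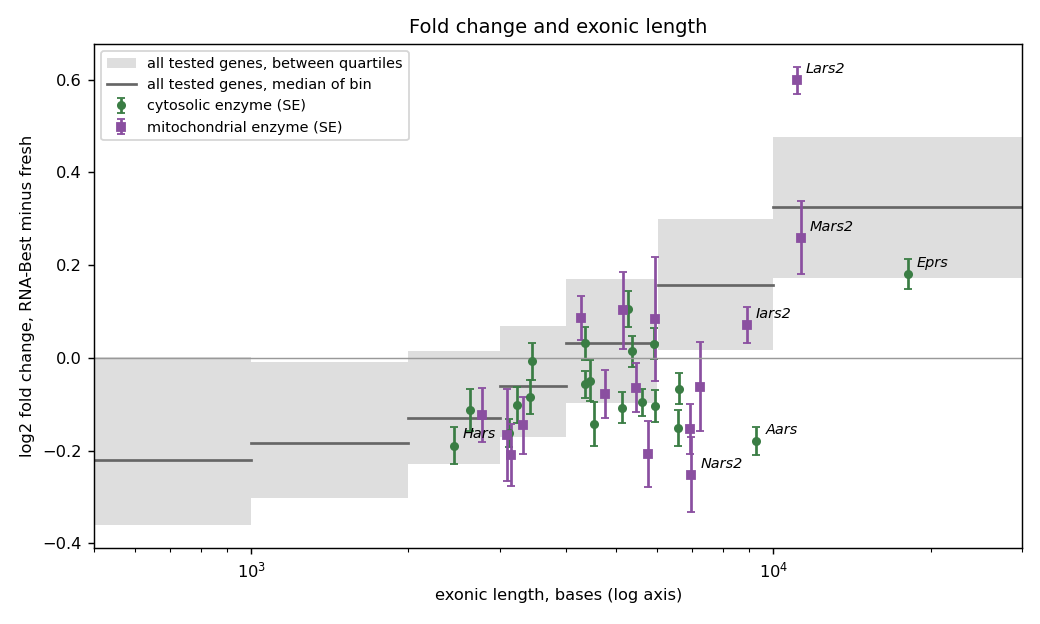
Log2 fold change, RNA-Best minus fresh (y axis), against exonic length in bases (x axis, log scale) for cytosolic (green circles) and mitochondrial (purple squares) synthetases with SE bars, over the median (grey line) and the range between the quartiles (grey band) of all tested genes in each length bin. *Lars2* at 0.60 stands above the band of genes over 10000 bases, *Mars2* and *Eprs* lie within it, and *Aars* and *Nars2* lie below the band of their bin.

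With an offset that removed the trend with length in each library, 0 cytosolic enzymes rose and 10 fell, 8 of them among the 10 that fell without it. Of all genes, 19.2% were then higher and 20.4% lower. *Eprs* turned to the other direction, with a log2 fold change of -0.20 (SE 0.03; edgeR adjusted p = 3.03e-06), and *Cars* joined it among the enzymes that fell (-0.16, edgeR adjusted p = 0.000247). The length of *Eprs* in this fit, 18102 bases, joins the exons of all its annotated transcripts and can exceed that of its mRNA. *Aars* fell further, by 0.37 on the log2 scale (SE 0.03; edgeR adjusted p = 8.71e-12), the largest decrease of a synthetase in this fit. *Farsb* and *Rars* no longer passed (edgeR adjusted p = 0.723 and 0.478), nor did *Iars* (0.132). Of the mitochondrial enzymes, 1 rose and 4 fell: *Lars2* was still higher, with a log2 fold change of 0.35 (SE 0.03; edgeR adjusted p = 1.63e-11), while *Mars2* was at 0.01 (edgeR adjusted p = 0.912). *Nars2* (-0.36), *Fars2* (-0.26) and *Tars2* (-0.26) fell in both fits, and *Iars2* fell with the offset alone (-0.10, edgeR adjusted p = 0.0224). *Yars2* (-0.14, edgeR adjusted p = 0.0891) and *Sars2* (-0.09, edgeR adjusted p = 0.286) no longer passed. Inside the complex 0 rose and 2 fell with the offset, and outside it 0 rose and 8 fell.

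**Figure D4:**
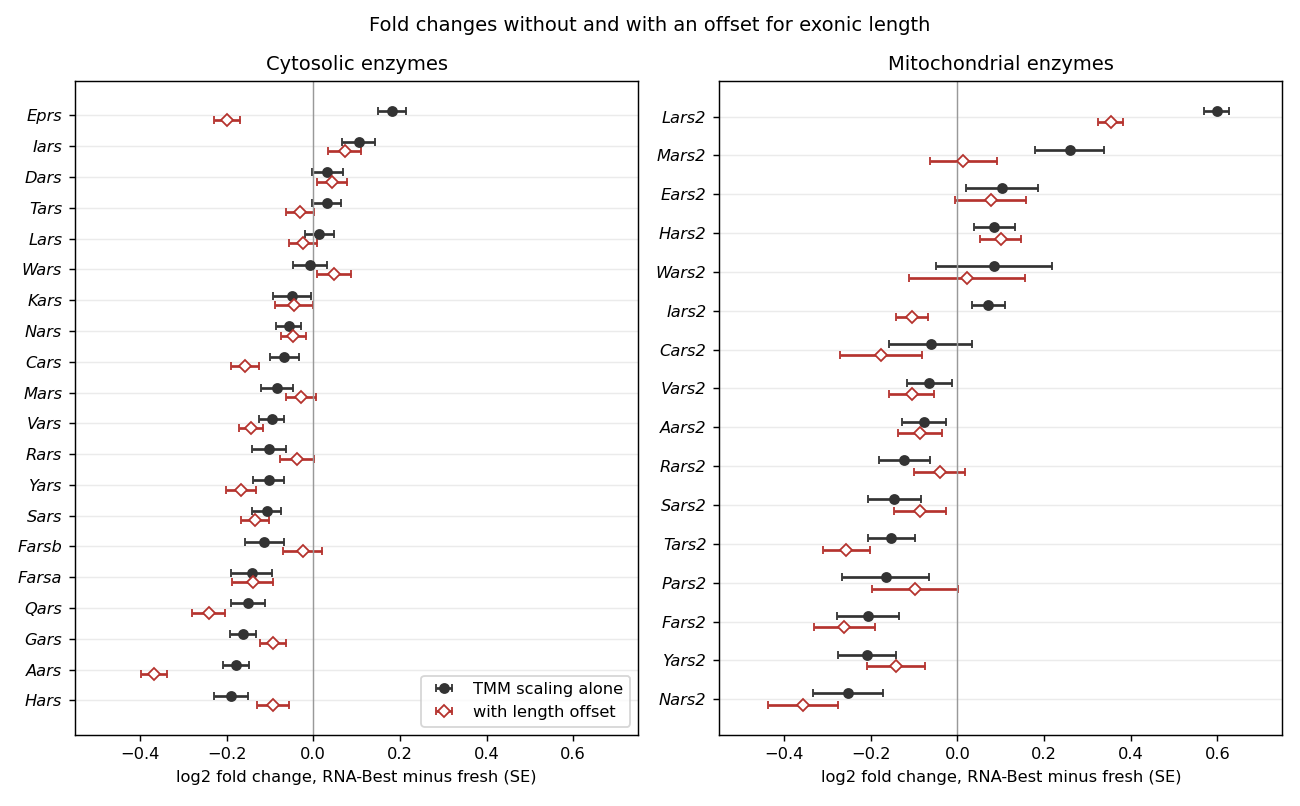
Log2 fold change, RNA-Best minus fresh, with its SE (x axis) for each synthetase with scaling for library size alone (black circles) and with an added offset for exonic length (open red diamonds). *Eprs* moves from 0.18 to -0.20, *Aars* from -0.18 to -0.37 and *Mars2* from 0.26 to 0.01, and *Lars2* stays the highest at 0.35.

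Some counts cannot be assigned to a synthetase with certainty. The sources do not say whether reads were counted by strand, so reads from overlapping genes on opposite strands may be mixed. *Iars2* shares 2034 exonic bases (22.9% of its exons) with *Rab3gap2*, *Farsb* shares 9.47% with *Sgpp2*, *Fars2* 8.72% with *Nrn1* and *Vars2* 8.52% with *Gm20483*, and *Hars* and *Hars2* share 195 bases with each other. *Aars* shares 1326 bases (14.3%) with *Exosc6* on the same strand. *Iars* shares 7.15% of its stretches of 50 bases with the gene *Gm4849*. Parts of counts, more than 0.001 from a whole number, were found in 16 of the 36 synthetases, in 4 libraries for *Eprs*, in 6 for *Lars2* and in 1 or 2 for the others. Their share in each change was not tested.

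The genes that act before and after the synthetases were compared in the same fit, where 26.0% of all genes were higher and 24.8% lower. These shares were 19.2% and 20.4% with the length offset. Of the 3 scaffold proteins of the multi-synthetase complex, *Aimp1* fell from 62.4 ± 0.891 to 48.3 ± 1.59 CPM (SD, n = 3; log2 fold change -0.36, edgeR adjusted p = 4.82e-08), and the other 2 did not pass. The elongation factors that carry charged tRNA to the ribosome or move it along had 0 of 5 higher and 4 lower, with a median log2 fold change of -0.22. *Eef1b2* (-0.35), *Eef1d* (-0.26) and *Eef1g* (-0.22), subunits of the exchange factor that reloads eEF1A with GTP, fell most. Of 6 genes for proofreading and peptidyl-tRNA hydrolysis, *Aarsd1*, which clears mischarged alanine tRNA, rose from 0.799 ± 0.108 to 1.48 ± 0.309 CPM (edgeR adjusted p = 0.0274), a level not far above the limit of 3 counts in the shallowest library, and *Dtd1* fell (-0.15). Of 16 genes for tRNA maturation and export, 2 rose and 6 fell, among them *Xpot*, which exports tRNA from the nucleus (0.23), and *Tsen34* and *Tsen54*, subunits of the tRNA splicing endonuclease (-0.46 and -0.22). With the length offset, 0 of the scaffold proteins were higher and 1 lower, 1 elongation factor was higher and 4 lower, 1 of the proofreading and hydrolase genes was higher and 0 lower, and 2 of the maturation and export genes were higher and 5 lower.

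In mitochondrial decoding, 1 of 12 genes rose and 3 fell, with a median log2 fold change of 0.01. *Tsfm* (-0.23) and *Tufm* (-0.19), the mitochondrial elongation factors Ts and Tu, fell, and *Mtif2*, an initiation factor, rose (0.21) with overlapping groups. With the length offset 2 of the 12 were higher and 0 lower, so the decreases of *Tsfm* and *Tufm* did not hold, and the median was 0.04. The amino acid response genes, which act in or downstream of the Gcn2 and Atf4 pathway, held 2 of 21 that rose and 15 that fell, with a median of -0.19. *Eif2ak4*, which encodes Gcn2, rose from 20.7 ± 0.527 to 26.0 ± 2.22 CPM (SD, n = 3; log2 fold change 0.34, edgeR adjusted p = 4.27e-05). *Phgdh*, which opens serine synthesis, fell by 0.33 and *Trib3*, an inhibitor of Atf4, by 0.28 on the log2 scale. With the length offset, 1 of the 21 rose and 12 fell, with a median of -0.11. The motif TGATGNAA was in the promoter windows of 5 of the 19 of these genes that had one (26.3%), against 4.51% of all genes. It was in 0 of the other companion genes, whose lists had 3, 3, 5, 11 and 10 genes with a window. At the share of all genes few matches would be found in lists of this size, and the difference was not tested. Of the 5 synthetases with the motif, *Aars*, *Gars* and *Yars* fell, *Iars* rose and *Tars* did not pass the test.

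**Figure D5:**
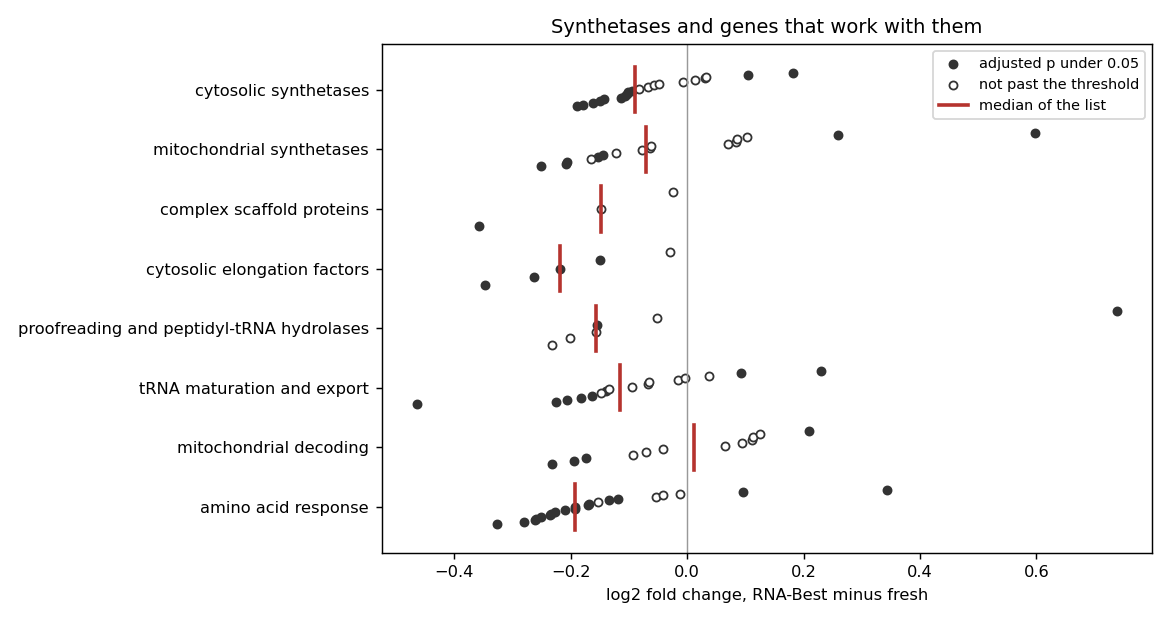
Log2 fold change, RNA-Best minus fresh (x axis), of each gene in the synthetase lists and in the lists of genes that work with them, with filled points for an edgeR adjusted p under 0.05, open points for the others and a red bar at the median of each list. The medians of the elongation factors (-0.22) and of the amino acid response genes (-0.19) lie to the left of those of the cytosolic (-0.09) and mitochondrial (-0.07) synthetases.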

How the data were processed

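Bulk mRNA libraries of LβT2 cells were compared, 3 fresh and 3 RNA-Best. Single reads were aligned by the authors with STAR 2.5.1b (mouse assembly GRCm38) and assigned to genes with featureCounts 1.5.0-p1. The deposited values are unscaled estimated counts. Parts of counts made up 9.36% to 16.3% of a library's values, and the setting that divided reads is not given in the sources used here.

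Counts were rounded and tested in R 4.3.3 with the quasi-likelihood test of edgeR 4.0.16 (TMM scaling, factors between 0.994 and 1.01, filterByExpr with a minimum count of 10, Benjamini-Hochberg adjustment over all genes tested, threshold 0.05). CPM used the scaled library sizes. DESeq2 1.42.0 and voom of limma 3.58.1, the method of the study, used here without its fold change threshold, were alternatives, with other scaling, no filter, a replicate block, loess offsets (span 0.5) for length and GC content, thinning to 4909268 counts, and leaving out single libraries. In counts simulated for this comparison over 14604 genes, edgeR recovered 58% of 50 genes changed 1.2-fold, 88% of those changed 1.5-fold and all changed 4-fold, with 10 false calls.

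Exonic lengths and positions were taken for 46574 genes from GENCODE, in a release later than that of the authors but for the same assembly. Each library counted as 1 sample. Counts of paired libraries within a group differed with a chi-square per gene of 1.08 to 1.95. These values cannot tell separate cultures from repeated libraries of 1 culture. The members, the lists of other genes and the rules below were chosen with earlier results of these data known. All synthetases are named, and at most 3 genes of each other list. Values in every library are given for the 4 that rose and the 5 lowest log2 fold changes past the threshold. They are also given for the 3 highest and 3 lowest levels. Protein sequences and spike-in controls were not used here. A further promoter match is not reported here.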

Additional observations from a re-analysis of the deposited data

How the results depend on the processing

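Over the 36 synthetases and 15 alternatives, 435 of the log2 fold changes kept their direction and their side of the threshold, 64 kept the direction but no longer passed, 12 passed anew and 29 changed sign. The number of called genes stayed within 1.5 times the 7479 of all genes. Limma-voom ended the call of *Sars2* (adjusted p = 0.0592), which left 4 mitochondrial enzymes lower, and kept 2 higher and 10 lower in the cytosol. With DESeq2, 1 cytosolic enzyme was higher and 6 lower, and 1 mitochondrial enzyme was lower. Without the filter on low counts, which moved the median of all genes to -0.06, 1 cytosolic enzyme was higher, the medians were -0.14 (cytosolic) and -0.12 (mitochondrial), and *Dars* (-0.0149), *Lars* (-0.0329) and *Tars* (-0.0158) turned negative. With the length offset, 0 cytosolic and 1 mitochondrial enzymes were higher and the cytosolic median was -0.0693, and the signs turned for *Eprs* (-0.20), *Lars* (-0.0228), *Tars* (-0.0305), *Wars* (0.0471) and *Iars2* (-0.10). The replicate block together with the length offset gave the same counts, a cytosolic median of -0.0729, and -0.20 for *Eprs*, -0.0258 for *Lars*, -0.0308 for *Tars*, 0.0424 for *Wars* and -0.0982 for *Iars2*. With the GC offset, 1 cytosolic and 1 mitochondrial enzymes were higher, the medians were -0.0622 and 0.0114, the second with a turned sign, and *Cars* (0.00184), *Dars* (-0.0896), *Lars* (-0.0392), *Tars* (-0.029), *Vars* (0.0595), *Wars* (0.0559), *Aars2* (0.0704), *Sars2* (0.00279) and *Vars2* (0.067) turned, of which only *Dars* passed the threshold. After thinning, 6 cytosolic enzymes were lower, the cytosolic median was -0.0766, and *Lars* (-0.0318) and *Iars2* (-0.00451) turned. Leaving out single libraries gave 1 to 2 cytosolic enzymes higher, 7 to 9 lower, 2 mitochondrial enzymes higher and 1 to 5 lower, with medians from -0.0948 to -0.073 (cytosolic) and from -0.0883 to -0.0424 (mitochondrial). The sign of *Wars* (range -0.0522 to 0.0125) turned when fresh replicate 2 or RNA-Best replicate 1 or 2 was left out, and those of *Lars* (-0.00119 to 0.031) and *Wars2* (-0.0348 to 0.285) turned when RNA-Best replicate 1 was. The log2 ratio of the summed mitochondrial CPM turned to -0.0414 without *Lars2*. The cause of these changes was not tested, beyond what each alternative leaves out.

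The sources do not say whether the replicate numbers pair the libraries. Libraries with the same number had correlations of -0.0054, 0.0348 and 0.0025 in their deviations from the group means. Those with different numbers had correlations from -0.0538 to 0.0468. Such values cannot show whether a culture or day was shared. With the replicate block, 7472 genes passed, 2 cytosolic enzymes were higher and 11 lower, and 2 mitochondrial enzymes were higher and 5 lower. Depth limits the enzymes with the fewest counts, such as *Wars2* and *Pars2*.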
